A study of Rattus norvegicus with 15 samples.

Results

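Atrogin-1 and MuRF1, encoded by Fbxo32 and Trim63, and the forkhead factors Foxo1, Foxo3 and Foxo4 were measured in rat gastrocnemius muscle by 9 probe sets, taken as all those whose single gene symbol is one of these 5. They are 9 of 31042 probe sets other than controls and 5 of 14217 genes that have a probe set of their own. Atrogin-1 and MuRF1 are ubiquitin ligases of striated muscle. Atrogin-1 is the F-box subunit of an SCF ligase and MuRF1 is a RING-finger protein of the sarcomere, and both mark muscle proteins for the proteasome. Their RNA rises in fasting, denervation and glucocorticoid excess. FoxO factors bind the promoters of both genes when they are in the nucleus, and Akt, the kinase below insulin and insulin-like growth factor 1, phosphorylates FoxO factors and keeps them in the cytosol.

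The arrays were GeneChip Rat Genome 230 2.0, with 1 array for each of 15 male Wistar rats that were bought at 3.5 weeks of age. CN rats received 15% casein and LP rats a calorie-matched 8% casein diet for 4 weeks, and 4 rats of each group were measured. CN-R (3 rats) and LP-R (4 rats) followed the same diets for 4 weeks and were measured on day 84, after 8 further weeks. All rats were fasted for 16 h before sampling, so the levels of both ligases are those of fasted muscle in every group. By the study's methods, LP-R rats were returned to 15% casein, whereas the sample labels state that each rat stayed on its first diet to day 84. None of the 15 arrays is labelled CN-R replicate 3, and all 15 were used. CN-R replicate 4 carries a control title and a restricted treatment label and was kept in CN-R. The study took rats whose body weight was close to the average of their group. The authors made log2 signals from the probes with FARMS, which flattens a probe set to nearly 1 value over all arrays when its probes do not move together. The early and the late arrays were summarised apart, so CN and LP were never compared in level with CN-R and LP-R.

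After 4 weeks of protein restriction, Fbxo32 was 1.64-fold lower in LP than in CN, with a gap between the groups that closed under median centring. Trim63 and Foxo1 were also called lower, by less and with overlapping groups, and Foxo3 was not called. On day 84 none of these genes was called. No probe set on the chip passed the adjusted threshold of limma, the second test.

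Sequences of the promoters were available from RefSeq (GRCr8 build, 250 bases before to 50 after a start site) for 3 of the 5 genes, Trim63, Foxo1 and Foxo4. The sequence of Trim63 is shown because it carries both elements through which the gene is known to be switched on in wasting muscle. It was read from the plus strand at chr5:151816986-151817185, from base −250 to base −51 before the start site of the transcript used. It lies outside that transcript, and all positions count from that start site. Capitals mark the palindromic glucocorticoid receptor element and the FoxO element:
Trim63: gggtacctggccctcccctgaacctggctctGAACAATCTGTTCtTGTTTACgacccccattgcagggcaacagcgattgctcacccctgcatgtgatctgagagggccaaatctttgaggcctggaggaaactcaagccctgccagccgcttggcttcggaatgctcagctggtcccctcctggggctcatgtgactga
The glucocorticoid receptor element was searched as GNACANNNTGTNC, which reads the same on both strands, and was found at −219 to −207. The FoxO element was searched on both strands as TGTTTAC and was found at −205 to −199, with 1 base between both elements and no overlap. Of 33469 promoters of the same length, 3.78% held TGTTTAC, 0.439% held GNACANNNTGTNC and 4 held both. The insulin response element TGTTTTG, searched likewise, was held by 6.28% of the promoters and was absent from these 300 bases of Trim63. The windows of Foxo1 and Foxo4 held none of the 3 motifs. These matches describe letters and not binding.

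Among the 9 probe sets, 4 varied over the early arrays (SD over 0.01 on the log2 scale) and 5 over the late ones. The single probe sets of Fbxo32 (1369188_at) and Trim63 (1387804_at) varied in both sets. Foxo1 and Foxo3 each had 1 varying probe set (1376779_at and 1376593_at) and 2 that FARMS held constant in both. The constant ones stood at 5.98 and 6.85 for Foxo1 and at 5.93 for both of Foxo3 in the early arrays, and carry no information on the diets. The probe set of Foxo4 (1372652_at) was constant at 8.88 in CN and LP and varied on day 84.

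**Figure D1:**
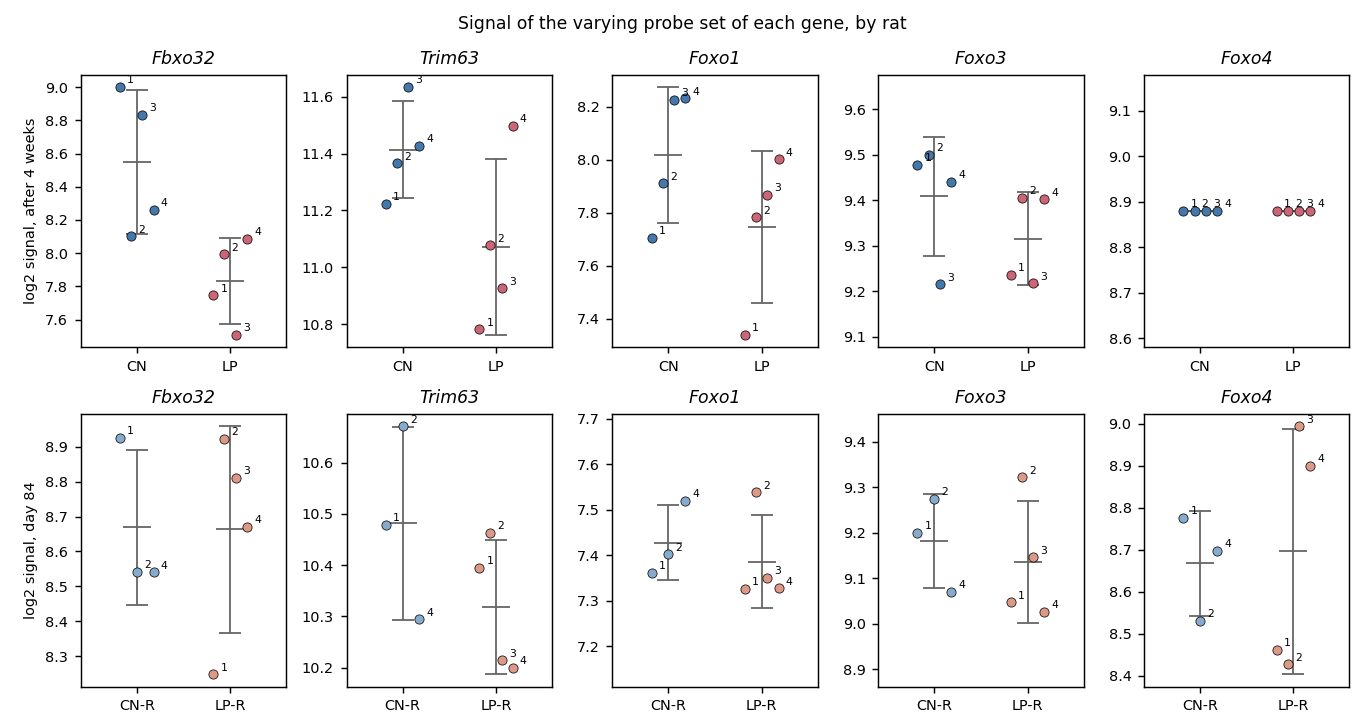
Log2 signal of each gene's varying probe set (y axis) in CN and LP after 4 weeks (top row) and in CN-R and LP-R on day 84 (bottom row), with 1 point for each rat, its replicate number, and the mean with the SD as bars; the scale of the y axis differs between panels. The 4 LP rats lie below all CN rats for Fbxo32, 3 of 4 do so for Trim63, and groups overlap in all 5 panels of day 84.

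Fbxo32, the ligase atrogin-1, had log2 signals of 9.00, 8.10, 8.83 and 8.26 in CN replicates 1 to 4. In LP replicates 1 to 4 the log2 signals were 7.75, 7.99, 7.51 and 8.08. The groups did not overlap, but the gap between the lowest CN rat and the highest LP rat was 0.016, because CN replicates 2 and 4 lay well below replicates 1 and 3. With median centring of the arrays the groups overlapped (exact permutation p 0.0571). The mean log2 signal was 8.55 ± 0.44 in CN and 7.83 ± 0.26 in LP (SD, n = 4 each), a difference of −0.72 (SE 0.25). Rank products, the test named in the study's methods, ranks the differences of all pairs of arrays and estimates the proportion of false positives (pfp) from permuted arrays. It called Fbxo32 lower at a pfp of 0, which means that none of 100 permutations gave so low a rank. In simulated data with the means and spreads of these probe sets, the test called more unchanged probe sets than its pfp states, which bears on every call given here. The exact two-sided permutation p was 0.0286, the smallest that 4 against 4 rats allow, and limma gave an adjusted p of 0.632 (unadjusted 0.0257). Fbxo32 was the 6th lowest change of 3974 varying probe sets.

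Trim63, the ligase MuRF1, had log2 signals of 11.22, 11.37, 11.63 and 11.43 in CN. In LP they were 10.78, 11.08, 10.93 and 11.50. LP replicates 1 to 3 lay below every CN rat, whereas LP replicate 4 was higher than 3 of the 4 CN rats. The mean was 11.41 ± 0.17 in CN and 11.07 ± 0.31 in LP (SD, n = 4 each), a difference of −0.34 (SE 0.18) or 1.27-fold. Rank products called it lower (pfp 0.00511), the exact permutation p was 0.114 and the adjusted p of limma 0.703. Without LP replicate 4 the difference was −0.48 and the exact permutation p 0.0286, and the call held without any single array. With ranks taken among varying probe sets alone, where 21 of 3974 were called lower, the call was lost (pfp 0.220).

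Foxo1, a FoxO factor whose own RNA rises with fasting in muscle, had log2 signals of 7.71, 7.91, 8.22 and 8.23 in CN. In LP they were 7.34, 7.78, 7.87 and 8.00. Every LP rat lay below the CN mean, but only LP replicate 1 lay below every CN rat. The mean was 8.02 ± 0.26 in CN and 7.75 ± 0.29 in LP (SD, n = 4 each), a difference of −0.27 (SE 0.19). The gene was called lower by rank products (pfp 0.0134), with an exact permutation p of 0.229 and a limma adjusted p of 0.786. Leaving out CN replicate 3 (−0.20), CN replicate 4 (−0.20) or LP replicate 1 (−0.13) ended the call.

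Foxo3, a FoxO factor that drives both ligases and autophagy genes in mouse muscle, was at 9.48, 9.50, 9.22 and 9.44 in CN on the log2 scale. In LP it was at 9.24, 9.40, 9.22 and 9.40. The groups overlapped, and CN replicate 3 was as low as the lowest LP rats. The difference of the means was −0.093 (SE 0.083), which was not called (pfp 0.125, exact permutation p 0.229). Foxo4, a further FoxO factor with the same binding domain, could not be compared here because its signal was constant.

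Rank products thus called 3 of the 9 probe sets lower in LP and 0 higher. Over all tested probe sets 1.6% were called lower and 1.67% higher, and over the 3974 that varied 12.5% were called lower. Each of the 4 varying probe sets had a lower mean in LP, as did 42.4% of all varying ones. The limma test called 0 of 31042 at an adjusted p of 0.05, with 7.54% under an unadjusted p of 0.05. LP values below every CN value, the pattern of Fbxo32, were found in 2.49% of the varying probe sets. The study's gene tables, which were drawn up on these arrays, hold Fbxo32, Trim63 and Foxo1, so these genes were not chosen independently of the values given here.

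**Figure D2:**
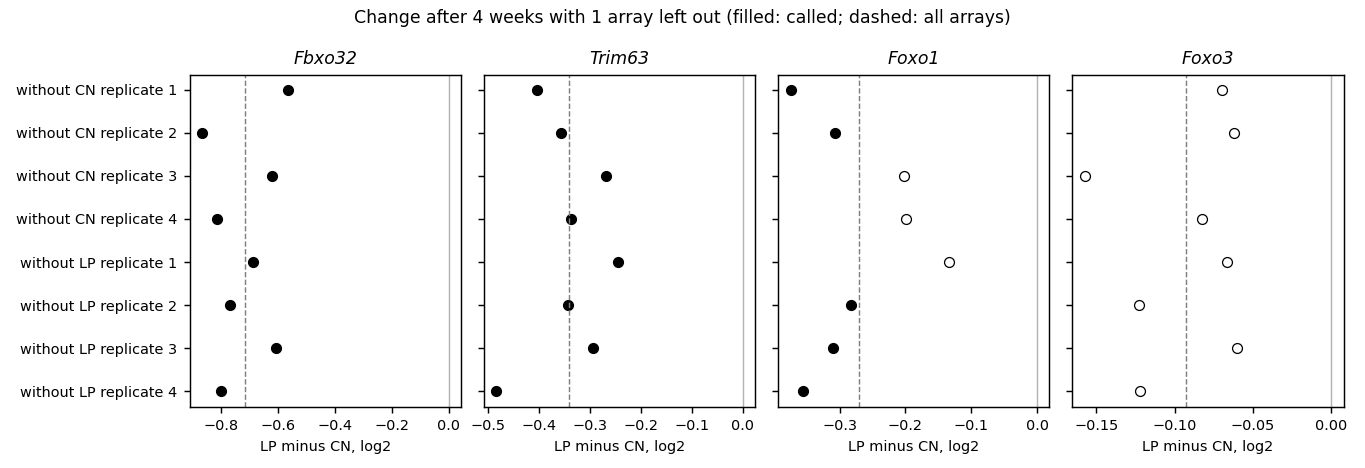
Difference of the mean log2 signal, LP minus CN (x axis, with a scale of its own in each panel), for Fbxo32, Trim63, Foxo1 and Foxo3 with each array left out in turn (rows); filled points were called by rank products and the dashed line is the value over all 8 arrays. Fbxo32 stays between −0.87 and −0.57 and is called in each row, as is Trim63, whereas Foxo1 is called in 5 of 8 rows.

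The differences were of like size within the replicate numbers. For Fbxo32, LP minus CN was −0.68 over replicates 1 and 2 and −0.75 over replicates 3 and 4. For Trim63 it was −0.36 and −0.32, and for Foxo1 −0.25 and −0.29. Foxo3 had −0.17 over replicates 1 and 2 and −0.018 over replicates 3 and 4. Foxo1 was higher in replicates 3 and 4 than in 1 and 2 in both groups, with means of 8.23 against 7.81 in CN and 7.93 against 7.56 in LP. The labels do not say what the numbers stand for.

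On day 84, Fbxo32 had log2 signals of 8.93, 8.54 and 8.54 in CN-R replicates 1, 2 and 4. In LP-R replicates 1 to 4 they were 8.25, 8.92, 8.81 and 8.67. LP-R replicate 1 was the lowest of all 7 rats and the other LP-R rats lay within the range of CN-R. The difference of the means was −0.0062 (SE 0.20; exact permutation p 0.971). It moved between −0.093 and 0.13 when 1 array was left out, so no direction can be given.

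Trim63 on day 84 was at 10.48, 10.67 and 10.29 in CN-R on the log2 scale. LP-R rats were at 10.39, 10.46, 10.21 and 10.20. All LP-R rats were below the CN-R mean and 2 of 4 were below every CN-R rat. The difference was −0.16 (SE 0.13), which was not called (pfp 0.0852, exact permutation p 0.200), and its sign was kept without each array (−0.26 to −0.068). It was −0.26 without CN-R replicate 4 (exact permutation p 0.133), and also −0.26 with that rat counted as LP-R, the group its treatment label names (pfp 0.0927, exact permutation p 0.0476, the smallest for 2 against 5).

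The forkhead factors differed little on day 84. Foxo1 was at 7.36, 7.40 and 7.52 in CN-R and at 7.33, 7.54, 7.35 and 7.33 in LP-R, a difference of −0.042 (SE 0.070). Foxo3 was at 9.20, 9.27 and 9.07 in CN-R and at 9.05, 9.32, 9.15 and 9.03 in LP-R, a difference of −0.046 (SE 0.090). Neither was called, and in both genes LP-R replicate 2 was the highest of the 7 rats. Foxo4 was at 8.78, 8.53 and 8.70 in CN-R and at 8.46, 8.43, 8.99 and 8.90 in LP-R, a difference of 0.028 (SE 0.16). LP-R replicates 1 and 2 lay below all CN-R rats and replicates 3 and 4 above them, so that the LP-R rats spread more widely (SD 0.29) than the controls (SD 0.13). In all, 0 of the 9 probe sets were called in LP-R, where 0.422% of all probe sets were called lower and 0.171% higher. By limma 0 probe sets passed, with 5.04% under an unadjusted p of 0.05.

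**Figure D3:**
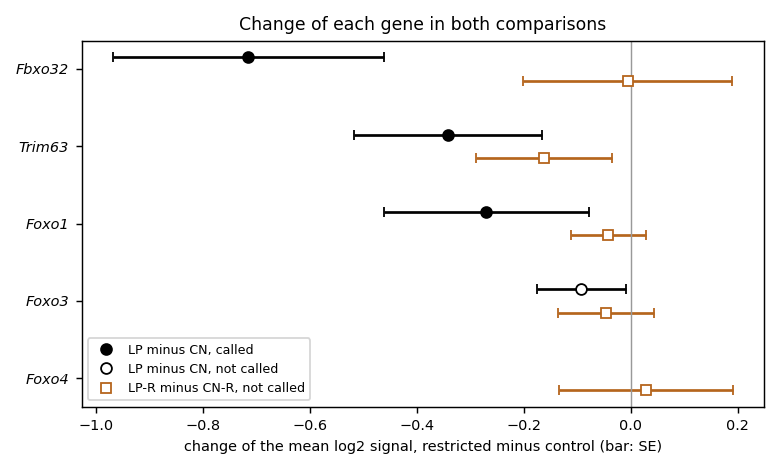
Difference of the mean log2 signal, restricted minus control (x axis, bars are the SE), for each gene with a varying probe set after 4 weeks (circles) and on day 84 (squares). Filled points were called by rank products: Fbxo32 at −0.72, Trim63 at −0.34 and Foxo1 at −0.27, all in LP, with no filled point on day 84.

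Whether the change in LP differed from that in LP-R was tested by an exact permutation of the group labels within the early and within the late arrays. For Fbxo32 the change in LP was lower by 0.71 than that in LP-R, with p = 0.0833 (exact, two-sided, 2450 relabelings) and 0.333 after adjustment over the 4 genes that vary in both sets. Without CN-R replicate 4 the difference was −0.65 (exact p = 0.134). Trim63 had a difference of −0.18 (exact p = 0.48), Foxo1 of −0.23 (exact p = 0.327) and Foxo3 of −0.047 (exact p = 0.706). A difference between the changes at both ages was therefore not shown for any of the 4, although Fbxo32, Trim63 and Foxo1 were called at the first age alone.

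The genes were then compared with each other over rats, in 6 pairs over the 8 early arrays and 10 pairs over the 7 late ones. Trim63 and Foxo1 had the highest correlation of the 16. Over the early rats r was 0.847 (exact p = 0.0067, adjusted p = 0.107) and Spearman's rho was 0.833 (exact p = 0.0154, adjusted 0.246). It was 0.826 without the 2 rats farthest from the median of Trim63 and 0.791 for the deviations from the group means (exact p within groups 0.0451, adjusted 0.444). Of the deviations from the means of each group and of replicates 1 and 2 or 3 and 4, r was 0.674. LP replicate 1 was lowest in both genes. On day 84 the same pair had r = 0.201 (exact p = 0.663) and rho = 0.429.

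Both ligases were less closely tied. Fbxo32 and Trim63 had r = 0.636 over the early rats (exact p = 0.0921, adjusted 0.368) and rho = 0.667 (exact p = 0.0831), and without the 2 rats farthest from the median of Fbxo32, r was 0.837. The deviations from the group means gave r = 0.325 (exact p = 0.392). CN replicate 1, highest in Fbxo32 and lowest of the CN rats in Trim63, stood off the line. On day 84 r was −0.038 (exact p = 0.931). Fbxo32 and Foxo1 had r = 0.348 early, which was −0.050 for the deviations from the group means, and 0.253 late. Late values of Trim63 had r = 0.720 with Foxo3 and −0.687 with Foxo4 (exact p 0.0706 and 0.0881, adjusted 0.368 for both). None of the 16 relations passed after adjustment.

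**Figure D4:**
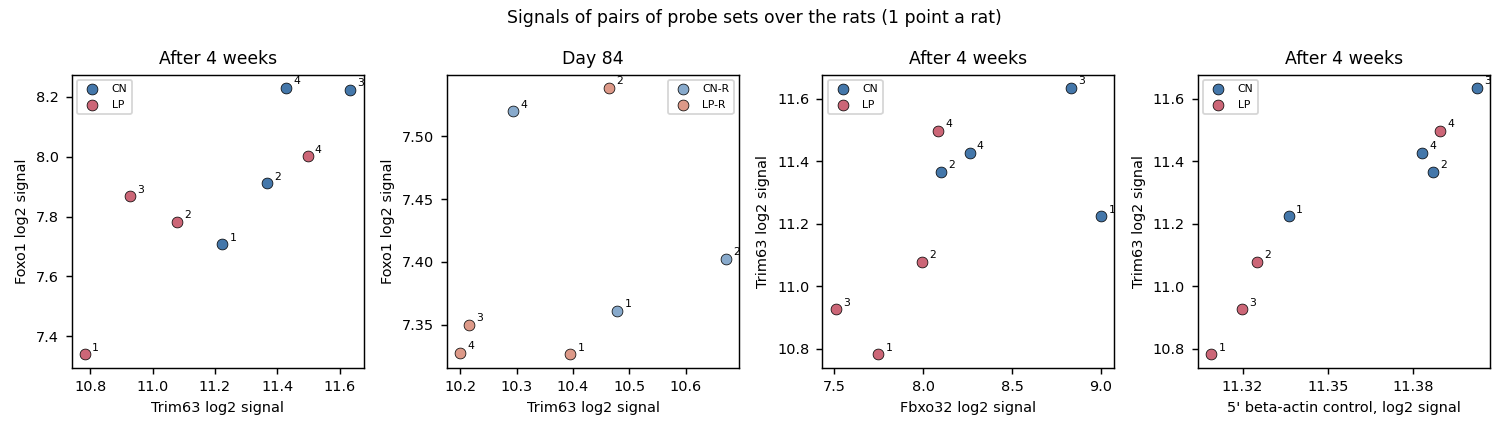
Log2 signals of 2 probe sets in each rat (1 point a rat, with its replicate number): Foxo1 against Trim63 after 4 weeks and on day 84, Trim63 against Fbxo32 after 4 weeks, and Trim63 against the control probe set for the 5′ end of beta-actin after 4 weeks. The points rise together in the first panel (r = 0.847) and lie close to a line in the last (r = 0.959), and are scattered on day 84 (r = 0.201).

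The chip carries control probe sets along beta-actin and GAPDH, which are read as signs of RNA quality. These were set against the members after their values had been seen, in 23 relations. The probe set for the 5′ end of beta-actin moved by 0.093 in all over the early rats and was 11.38 ± 0.03 in CN and 11.34 ± 0.04 in LP (SD, n = 4 each; exact permutation p 0.114). Its r with Trim63 was 0.959 (exact p = 7.44e-05, adjusted p = 0.00171), with rho = 0.976 (exact p = 0.000397, adjusted 0.00913) and r = 0.943 without the 2 farthest rats. For the deviations from the group means r was 0.937. Of the 3974 varying probe sets, 3 had an r with it as high as that of Trim63 or higher, Trim63 included. For Foxo1 r was 0.826 (exact p = 0.00506, adjusted 0.0582; rho = 0.762, exact p = 0.0368) and 0.697 without the 2 farthest rats, whereas Fbxo32 had r = 0.460 (exact p = 0.257) and 0.028 for the deviations. The probe set for the middle of beta-actin moved more over the early rats, from 10.54 in CN replicate 4 to 11.03 in CN replicate 2. Its r was −0.341 with Trim63, −0.294 with Foxo1 and −0.296 with Fbxo32, so these genes did not rise with it. The 5′ and middle probe sets of GAPDH were nearly constant early, at 13.51 and 13.63. The 5′ probe set of beta-actin also measures beta-actin itself, and its part in the lower values of Trim63 and Foxo1 was not tested. On day 84 Foxo4 followed the 5′ probe set of GAPDH, with r = 0.890 (exact p = 0.00833, adjusted 0.0639), rho = 0.857 (exact p = 0.0238) and r = 0.881 without the 2 farthest rats.

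Markers of the tissue were checked in the same arrays. The summed signal of 11 measured genes of skeletal muscle fibres was 16.99 to 17.01 on the log2 scale in CN and in LP, and 0 of them were called. Only 6 of the 11 had a varying probe set, and the constant probe sets, among them those of Acta1 and Ckm, make up much of the sum and could not move. Of 7 endothelial markers 4 were called higher in LP (Kdr by 0.40, SE 0.08), with sums of 11.04 to 11.21 in CN and 11.17 to 11.37 in LP. Of 7 adipocyte markers 1 was called, Adipoq, higher by 0.38 (SE 0.38). Of 6 fibroblast and matrix markers 2 were called lower, the collagens Col1a1 (−0.19, SE 0.16) and Col1a2 (−0.17, SE 0.11). The brighter Col1a1 probe set was at −0.092 and not called (pfp 0.160), and 3 of the 5 varying matrix markers had a higher mean. No marker of leukocytes, red blood cells, satellite cells or nerve was called in LP. Over all genes 2.56% were called higher and 2.45% lower in LP. On day 84 the slow myosin Myh7 (1 of 11 fibre genes), Cfd (1 of 7 adipocyte markers) and Hbb (1 of 2 red blood cell markers) were called lower in LP-R. Lyz2 (1 of 8 leukocyte markers) was called higher. The shares over all genes in LP-R were 0.633% called lower and 0.176% higher. The part of these cell types in the values of the ligases was not tested. In bulk muscle, fewer fibres and less RNA for each fibre cannot be told apart.

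The genes whose signal was most like that of Fbxo32 over the 8 early rats were sought among 3210 other varying probe sets with 1 symbol. Clip1 (a microtubule-end protein, r = 0.97), Insig1 (which restrains sterol synthesis, r = 0.97), Zc3h13 (r = 0.95), Mapt (the microtubule protein tau, r = 0.95) and Trdn (triadin of the sarcoplasmic reticulum, r = 0.94) came first. The lowest were Trak2 and Col4a2 (both r = −0.98) and Bst2 (tetherin, r = −0.97). These genes were picked as the extremes of 3210 probe sets over these 8 rats, and r includes the group difference. The deviations from the group means gave r = 0.87 to 0.94 for the first 5. They come from the same values and are no separate support. On day 84 the likeness was not there, with r = 0.012 for Clip1, 0.18 for Mapt, 0.37 for Trdn and 0.19 for Bst2, and constant signals for the others.

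The first list held genes known to act with both ligases in wasting muscle under FoxO factors. Of 32 listed genes 26 were measured, and 11 of these were called lower, 0 higher and 15 neither. That is 42.3% called lower against 2.45% of all genes (2.56% were called higher). Only 17 of the 26 had a varying probe set, and the 11 stand among these. Of all 2674 genes with a varying probe set 13% were called lower. With ranks taken among varying probe sets alone, 1 was called lower, where 21 of all 3974 were, and limma called 0. This list, like those below, was drawn up with earlier results of these data known, so its share is no independent support. The 17 genes that varied had a median change of −0.21 on the log2 scale, where all varying probe sets had 0.017, and 14 had a lower mean in LP. Mt2A, a metallothionein that buffers metals, had a change of −0.31 (SE 0.10), and Psme4, an activator of the proteasome, also of −0.31 (SE 0.06). Cdkn1a, the cell cycle inhibitor p21, had −0.31 (SE 0.22) at its brighter probe set and −0.82 (SE 0.21) at the other, where LP (6.54 to 7.48) and CN (7.74 to 8.13) did not overlap. Eif4ebp1, which restrains translation, had −0.24 (SE 0.14). The other 7 called genes, among them the autophagy genes Gabarapl1 and Sqstm1, the lysosomal protease Ctsl and Pdk4, which slows glucose oxidation, had changes of −0.24 to −0.18. Pdk4 also has a brighter probe set, which was constant. Sqstm1, singled out after its values were seen, had the least spread, with −0.21 (SE 0.02) and no overlap. Of the 26, Cdkn1a, Ctsl, Fbxo31 and Pdk4 are in the study's gene tables, which were drawn up on these arrays.

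**Figure D5:**
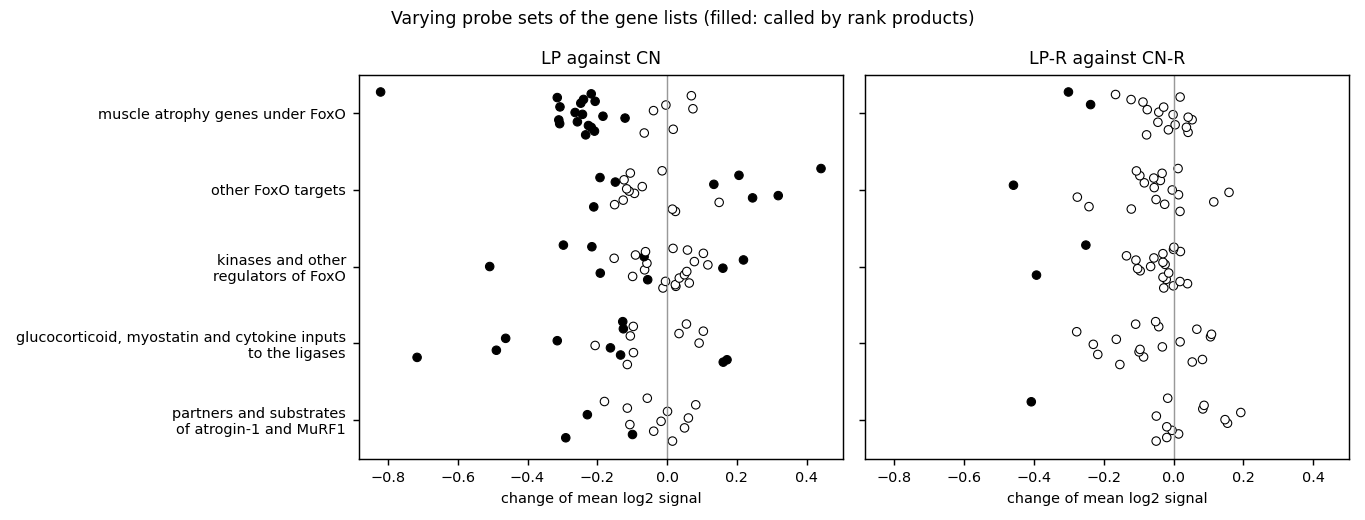
Difference of the mean log2 signal, restricted minus control (x axis), for the varying probe sets of 5 gene lists (rows), in LP against CN (left) and LP-R against CN-R (right); filled points were called by rank products. All filled points of the atrophy genes lie left of 0 (median of the 17 varying genes −0.21 in LP), and few points are filled on day 84.

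Targets of FoxO factors outside muscle wasting went both ways in LP. Of 19 measured, 4 (21.1%) were called higher and 3 (15.8%) lower, against 2.56% and 2.45% of all genes. A varying probe set was held by 15 of the 19, and of all genes with one 13% were called lower. Tnfsf10, the death ligand TRAIL, had a change of 0.44 (SE 0.25), the transcription regulator Cited2 one of 0.24 (SE 0.32), the cell death gene Bcl2l11 one of 0.21 (SE 0.17) and Rictor, a subunit of the kinase complex that acts on Akt, one of 0.13 (SE 0.04). Cebpb had −0.21 (SE 0.08), the cell cycle inhibitor Cdkn1b −0.19 (SE 0.10) and Klf9 −0.15 (SE 0.08). Brighter probe sets of Cdkn1b (−0.13, SE 0.09, pfp 0.0881) and Klf9 (−0.15, SE 0.09, pfp 0.0587) were not called. The list had a median of −0.014, and Bcl2l11, Cdkn1b, Cited2 and Tnfsf10 are in the study's tables.

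Of 36 measured kinases, acetylases and other proteins that act on FoxO factors, 1 was called higher and 3 lower in LP, and 32 neither. That is 2.78% higher and 8.33% lower, against 2.56% and 2.45% of all genes. A varying probe set was held by 18 of the 36, the called ones among them. Of all genes with a varying probe set 13% were called lower. Igf1, the growth factor above Akt, had a change of 0.16 (SE 0.17). The acetylase gene Crebbp had −0.30 (SE 0.14) at its only varying probe set, which is dimmer than a pair of constant ones, and Usp7, which removes ubiquitin, had −0.19 (SE 0.09). The coactivator Ppargc1a was called at all its probe sets, with −0.056 (SE 0.64) at the brightest, −0.51 (SE 0.62) at the next and −0.066 (SE 0.63) at the dimmest. For Ppargc1a at each of these, and for Igf1 at its brightest, the standard error exceeded the change. The RNA of Akt1 and Akt2 was not called. Igf1, Ppargc1a and Usp7 are in the study's tables.

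Of 24 measured genes of the glucocorticoid, myostatin and cytokine pathways that feed into both ligases, 7 were called lower and 2 higher in LP. That is 29.2% lower and 8.33% higher, against 2.45% and 2.56% of all genes. A varying probe set was held by 15 of the 24, and of all genes with one 13% were called lower. The glucocorticoid-induced genes Ddit4 and Cebpd had changes of −0.72 (SE 0.70) and −0.49 (SE 0.36). CN rats ran from 8.43 to 10.32 and LP rats from 7.64 to 10.13 for Ddit4, so that the groups overlapped over most of their range. Mt2A, which is also in the first list, was at −0.31, Nfkbia, the inhibitor of NF-kappaB, at −0.16 (SE 0.41), Smad3 at 0.17 (SE 0.17) and the receptor Tnfrsf12a at 0.16 (SE 0.30). Fkbp5 of the same list had 0.092 (SE 0.11) at its brighter probe set and was not called. Of the 15 varying genes 11 had a lower mean in LP and 4 a higher one. The glucocorticoid receptor Nr3c1 and myostatin Mstn were constant. This count was less steady than that of the atrophy genes: without 1 array it was 2 to 7, against 8 to 11 of the atrophy genes. It fell to 2 when LP replicate 3 was left out, to 3 for CN replicate 1, and to 4 for each of LP replicate 4 and CN replicates 2 and 3. Lower calls over the whole chip fell as well in these settings, from 498 to 210, 246, 322, 309 and 217 in the same order. Cebpd, Smad3 and Tnfrsf12a are in the study's tables.

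Of 26 measured partners and substrates of both ligases, 3 were called lower in LP and 0 higher. The 11.5% called lower stand beside 2.45% of all genes. Only 11 of the 26 had a varying probe set, and the 3 stand among these. Of all genes with a varying probe set 13% were called lower. Mybpc2, the fast myosin-binding protein C, had a change of −0.29 (SE 0.08) at its varying probe set with no overlap, while its brighter probe set was constant. Ube2g1, a ubiquitin-conjugating enzyme, had −0.23 (SE 0.10) at its called probe set, while a brighter one was at −0.11 (SE 0.05) and not called (pfp 0.0721). Trim54, a relative of MuRF1, had −0.099 (SE 0.035). The SCF scaffold Cul1 (0.00097, SE 0.010) was not called and Skp1 was constant. Ube2g1 is in the study's tables.

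On day 84 few genes of these lists were called in LP-R. Of the atrophy genes 2 of 26 were called lower, Cdkn1a (−0.30, SE 0.06, at the probe set that also separated LP from CN) and Gadd45a (−0.24, SE 0.21). At that probe set Cdkn1a ran from 6.79 to 6.92 in CN-R and from 6.45 to 6.64 in LP-R, without overlap (exact permutation p 0.0286, the smallest for 3 against 4). Irs2 (−0.46, SE 0.56), Sgk1 (−0.39, SE 0.33), Prkaa1 (−0.25, SE 0.12) and the muscle regulator Myod1, a substrate of atrogin-1 (−0.41, SE 0.18), were also called lower, and no listed gene was called higher. Over all genes 0.633% were called lower and 0.176% higher. The 14 varying atrophy genes had a median of −0.021, close to the −0.024 of all varying probe sets, where LP against CN had given −0.21.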

How the data were processed

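Total RNA of the gastrocnemius was hybridised to GeneChip Rat Genome 230 2.0 arrays. The deposited values are log2 signals per probe set, which the authors made with FARMS in R. The early and the late arrays were on separate scales: of 26041 probe sets nearly constant in both, 94.7% differed by over 0.01. No further normalization was applied, and 57 control probe sets were left out of the tests. Replicates are separate rats, and precision is limited by the number of arrays. Symbols came from the platform annotation (20826 probe sets with 1 symbol, 436 with several, 9780 with none).

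Rank products were computed over all pairs of arrays (16 early, 12 late) and all 31042 probe sets, with 100 permutations within arrays, both directions sharing the permuted values, seed 1. The threshold was a pfp of 0.05. For a second test, limma 3.58.1 in R 4.3.3 was run with Benjamini-Hochberg adjustment. Single values were tested by exact two-sided permutation over all 70 or 35 splits. Python 3.11.15, numpy 2.4.6, scipy 1.17.1 and pandas 2.3.3 were used. Rank products and limma were tested on simulated data drawn with the mean and spread of each probe set, where rank products called more unchanged probe sets than its pfp states. Differences are restricted minus control with their standard error (SE). A gene was called when at least 1 of its probe sets was, and its value is that of its brightest called probe set (for uncalled genes, the brightest) unless another is named.

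The members and lists were chosen with earlier results of these data known, and the motifs with the sequence in view. Named were all member probe sets, the 5 genes most and 3 least like Fbxo32, and from each list up to 4 called genes in each direction by size of change. Alternatives were limma with and without a replicate block or a term for replicate numbers, other pairs of arrays, filters, quantile normalization, median centring, another place for CN-R replicate 4, leaving out each array and, chosen after seeing the data, a separate null for each direction. A mean over a gene's varying probe sets was not run because each member has 1.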

Additional observations from a re-analysis of the deposited data

Results flagged for a closer look

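Of 13 groups of 4 rats tested for a value far from the others, 1 was marked: Foxo1 in LP-R, where replicate 2 had a log2 signal of 7.54 and the other 3 rats lay at 7.33 to 7.35. The gap was 0.889 of the whole range, above Dixon's 95% critical value, which chance passes in about 1 of 20 groups. The same rat had the highest Foxo3 signal of the late arrays.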

How the results depend on the processing

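Without 1 array, rank products called 2 to 3 of the 9 probe sets in LP and 0 in LP-R, 8 to 11 atrophy genes and 2 to 7 genes of the glucocorticoid, myostatin and cytokine list lower in LP, and the changes in LP ran from −0.87 to −0.57 (Fbxo32), −0.48 to −0.25 (Trim63) and −0.37 to −0.13 (Foxo1). Restricted to varying probe sets, rank products called 1 member probe set, Fbxo32, and 1 gene of each of these lists. Trim63 (−0.34, pfp 0.22) and Foxo1 (−0.27, pfp 0.298) were lost. Calls fell over the whole chip too, to 11 higher and 21 lower of 3974, in place of 519 and 498. Without dim probe sets 3 genes of the glucocorticoid list were called lower, where 231 of 15521 probe sets were. The calls of Fbxo32, Trim63 and Foxo1 held over pairs within replicate numbers, without dim probe sets and with quantile normalization, median centring or a separate null.

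By limma 0 members and 0 genes of both lists were called, with changes of −0.72, −0.34 and −0.27 at adjusted p of 0.632, 0.703 and 0.786. The replicate numbers were not shown to pair the rats, as same-numbered rats had r of −0.031 to 0.551 early and 0.044 to 0.215 late in their deviations, and not every rat was most like its own number. With a replicate block limma called 0 members and 0 genes of both lists, at −0.72, −0.34 and −0.27 (adjusted p 0.708, 0.712 and 0.643). With a term for replicates 1 and 2 against 3 and 4 it called 0 members, 1 atrophy gene and 0 of the other list (−0.72, −0.34 and −0.27 at adjusted p of 0.637, 0.669 and 0.652).

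On day 84, where no member was called under any alternative, several signs turned. Fbxo32 was at 0.026 over pairs within replicate numbers, 0.00197 with quantile normalization, 0.049 with median centring and −0.093 to 0.13 without 1 array. Foxo1 was at 0.013 with median centring, 0.031 with CN-R replicate 4 as LP-R and −0.093 to 0.0039 without 1 array. Foxo3 was at 0.0092 with median centring and −0.11 to 0.00026 without 1 array, and Foxo4 at −0.071 with the replicate block, −0.025 with the number term and −0.071 to 0.12 without 1 array. Median centring moved the median of the varying probe sets from −0.024 to 0.031. The difference of the changes of Foxo3 was 0.0088 without CN-R replicate 4. The r of Fbxo32 and Foxo1 was −0.050 for deviations early and −0.082 to 0.477 without 1 array late, and that of Fbxo32 and Trim63 late was −0.175 to 0.198. The causes were not tested. With a separate null for each direction the member calls were the same, but over all probe sets LP-R had 107 called higher and 52 lower in place of 53 and 131. Without 1 array, 5 to 62 were called higher and 7 to 133 lower in LP-R, fewest without CN-R replicate 2, and 152 to 332 and 210 to 476 in LP.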
